A study of Phyllostachys edulis with 34 samples.

Results

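A set of limits on transcript levels left 4 of the 59091 genes of moso bamboo (Phyllostachys edulis): genes that were low in the leaves after 3 h of polyethylene glycol (PEG), near the control level after 24 h of PEG, and within set limits around the control after 3 h of NaCl, salicylic acid (SA) or abscisic acid (ABA). They were Phyllostachys_edulis_newGene_2402 and Phyllostachys_edulis_newGene_24447, written below as newGene_2402 and newGene_24447, together with PH02Gene36792 and PH02Gene27500. For each gene and treatment, the ratio was log2((mean FPKM of the treatment + 1)/(mean FPKM of CK at the same hour + 1)), where FPKM is the fragment count of a gene scaled to its length and to the number of mapped fragments in the library. A gene was kept at a ratio of -2 or lower in PEG 3 h, a ratio within 0.5 of 0 in PEG 24 h and a ratio within 1 of 0 in NaCl 3 h, SA 3 h and ABA 3 h. Because 1 is added to both means, a ratio just inside 1 can go with a difference of more than 2-fold in FPKM itself. At most 300 genes were to be kept, a number that was not reached, and the genes of lignin synthesis that the study lists were to be dropped. Of those 159 listed genes, 0 met the limits, and 1 had a ratio of -2 or lower in PEG 3 h. All 4 genes passed the filter on low counts.

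The libraries were made from poly-A RNA of young leaves of 30-day-old seedlings grown in nutrient solution. The seedlings received 25% PEG, 200 mM NaCl, 1 mM SA or 1 µM ABA in that solution for 3 h or 24 h, or belonged to the group labelled CK at the same hours, which was taken as untreated because the labels do not spell it out. The 34 libraries fall into 11 groups, with 3 libraries in each treatment and CK group and 4 in the group at 0 h, whose agent is labelled "all". The methods call the replicates biological without saying whether each is 1 seedling or a pool, and the seedlings have no stated genotype.

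PEG in the nutrient solution lowers the water potential around the roots and is widely used as a model of drought. NaCl lowers the water potential as well and adds ions to which the tissue is exposed. ABA is the hormone that plants make under water deficit and that closes stomata, and SA is a hormone best known from the defence against pathogens. A gene that met the limits was low under PEG and nearer to CK under salt and the added hormones at the same hour. The files pair no identifier with a gene name, so no function is given to any of the 4 genes, and the leaf label could not be checked against marker genes.

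The libraries held 28153302 to 51695158 counts. The first replicate of 0 h stood apart from its group: over 16868 genes its Spearman correlation with the other 0 h libraries was 0.713 to 0.715, against 0.964 to 0.973 with the 3 libraries of ABA 24 h. Fold changes against 0 h are therefore given with and without it. The rule used 21 libraries of 7 groups (CK, PEG at both hours, and NaCl, SA and ABA at 3 h). The genes were chosen by the mean FPKM of these groups, so their values there are given as a description, with no test. The 13 libraries of 0 h and of NaCl, SA and ABA at 24 h were not used by the rule. All tested comparisons have a group of these on at least 1 side, and 3 of the 7 set NaCl, SA or ABA at 24 h against CK 24 h, which the rule did use through the ratio in PEG 24 h.

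The number of genes left at each step of the rule is given as a description, and it depends on the limits and the pseudocount. A ratio of -2 or lower in PEG 3 h was met by 341 genes. Adding the limit in NaCl 3 h left 168, the limit in SA 3 h left 113, the limit in ABA 3 h left 10, and the limit in PEG 24 h left 4. Taken singly, the limit in NaCl 3 h was met by 168 of the 341 genes (49.3%), that in SA 3 h by 129 (37.8%), that in ABA 3 h by 79 (23.2%) and that in PEG 24 h by 72 (21.1%). Of the 341 genes, 262 were below the limit in ABA 3 h, 210 in SA 3 h and 169 in NaCl 3 h, and 0, 2 and 4 were above it. All of these ratios share the CK 3 h libraries with the ratio that chose the 341 genes, so nothing is read from the counts. Without the ABA limit 26 genes would have been kept, and without the limit in PEG 24 h, SA 3 h or NaCl 3 h 10, 6 and 5.

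**Figure D1:**
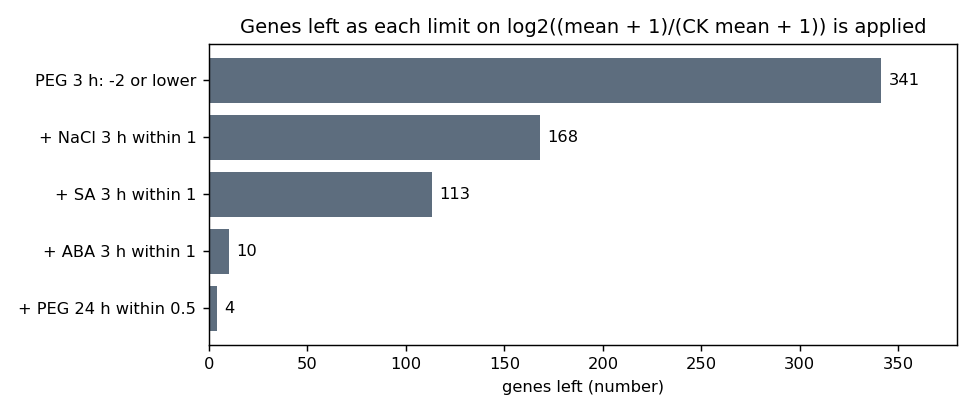
Number of genes left (x axis) as each limit on the log2 ratio to CK is added (bars, from top to bottom). The bars go from 341 genes to 4, and the step from 113 to 10 is the limit in ABA 3 h.

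The same limits, applied to the other treatments and to the other direction, gave 22 genes that were higher in PEG 3 h alone and back at 24 h, out of 775 past the limit. In SA they gave 25 lower genes of 888 and 70 higher genes of 1221. In NaCl they gave 1 of 200 and 7 of 680, and in ABA 3 of 173 and 28 of 413. Brief lowering in 1 treatment alone was thus met by between 1 and 25 genes in each of the 4 treatments, and these counts share CK 3 h and CK 24 h.

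newGene_2402 had the lowest ratio of the 4 genes in PEG 3 h, -2.77. Its FPKM in the 3 libraries of PEG 3 h was 0.850, 1.09 and 0.977, from 75, 90 and 87 counts. In CK 3 h it was 8.34, 18.8 and 10.2. The groups did not overlap, and the mean in PEG 3 h (0.971 ± 0.118, SD, n = 3) was 0.0780 of the mean in CK 3 h (12.5 ± 5.61, SD, n = 3). In PEG 24 h it was at 9.53, 13.5 and 10.7 FPKM, within the range of CK 24 h (8.13, 11.9 and 22.03). In the other treatments at 3 h it was measured at 24.5, 15.6 and 13.2 FPKM in NaCl, at 10.8, 17.8 and 9.38 in SA, and at 5.53, 22.5 and 20.7 in ABA. All of these groups overlapped CK 3 h, and each of their libraries lay above every PEG 3 h library.

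PH02Gene36792 had a ratio of -2.29 in PEG 3 h. Its FPKM there was 2.12, 1.503 and 2.20, from 18, 13 and 20 counts, against 15.2, 12.8 and 12.04 in CK 3 h. The groups did not overlap, and the mean of PEG 3 h (1.94 ± 0.381, SD, n = 3) was 0.145 of that of CK 3 h (13.4 ± 1.64, SD, n = 3). In PEG 24 h the values were 10.5, 7.96 and 9.22, and all of them lay below the values of 14.1, 12.2 and 13.8 in CK 24 h. Its ratio in PEG 24 h, -0.49, was just inside the limit, so the return was to 0.689 of CK and not to the same level. At 3 h the values were 10.0, 14.4 and 11.8 in NaCl, which overlapped CK, 9.84, 11.1 and 9.43 in SA, and 4.21, 7.81 and 7.91 in ABA. Both hormone groups lay below CK 3 h in FPKM in every library, with ratios of -0.37 for SA and -0.91 for ABA. On the counts normalized between libraries, as used in the tests, the log2 fold change against CK 3 h was -0.04 in SA 3 h. The lower level in SA 3 h thus depended on the measure. On those counts it was -0.87 in ABA 3 h, and -0.36 in PEG 24 h against CK 24 h, all with no test.

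PH02Gene27500 had a ratio of -2.11 in PEG 3 h. Its FPKM there was 1.46, 0.894 and 2.11, from 18, 11 and 26 counts, against 8.72, 9.63 and 10.8 in CK 3 h. The groups did not overlap, and the mean of PEG 3 h (1.49 ± 0.608, SD, n = 3) was 0.153 of that of CK 3 h (9.73 ± 1.06, SD, n = 3). In PEG 24 h the values were 12.3, 10.7 and 9.93, below the 12.9, 13.1 and 14.9 of CK 24 h and above all PEG 3 h libraries. The ratio in PEG 24 h was -0.29, and the log2 fold change on the normalized counts was -0.13, with no test. At 3 h the treatments stood on both sides of CK. NaCl gave 13.4, 13.9 and 13.5, all above CK, SA gave 10.96, 13.6 and 9.73, which overlapped it, and ABA gave 4.60, 1.94 and 7.99, all below it. The second ABA library, at 1.94, was lower than the highest PEG 3 h library.

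newGene_24447 had a ratio of -2.09 in PEG 3 h. Its FPKM there was 1.07, 0.824 and 1.57, from 83, 42 and 78 counts, against 7.92, 7.88 and 8.74 in CK 3 h. The groups did not overlap, and the mean of PEG 3 h (1.16 ± 0.382, SD, n = 3) was 0.141 of that of CK 3 h (8.18 ± 0.486, SD, n = 3). In PEG 24 h it was at 5.13, 6.21 and 5.88, which overlapped the 5.25, 5.50 and 7.68 of CK 24 h. At 3 h the values were 6.39, 8.29 and 7.16 in NaCl, 4.48, 3.76 and 4.38 in SA, and 2.15, 3.60 and 5.60 in ABA. NaCl overlapped CK 3 h, whereas every SA and every ABA library lay below it, with ratios of -0.82 and -0.94.

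**Figure D2:**
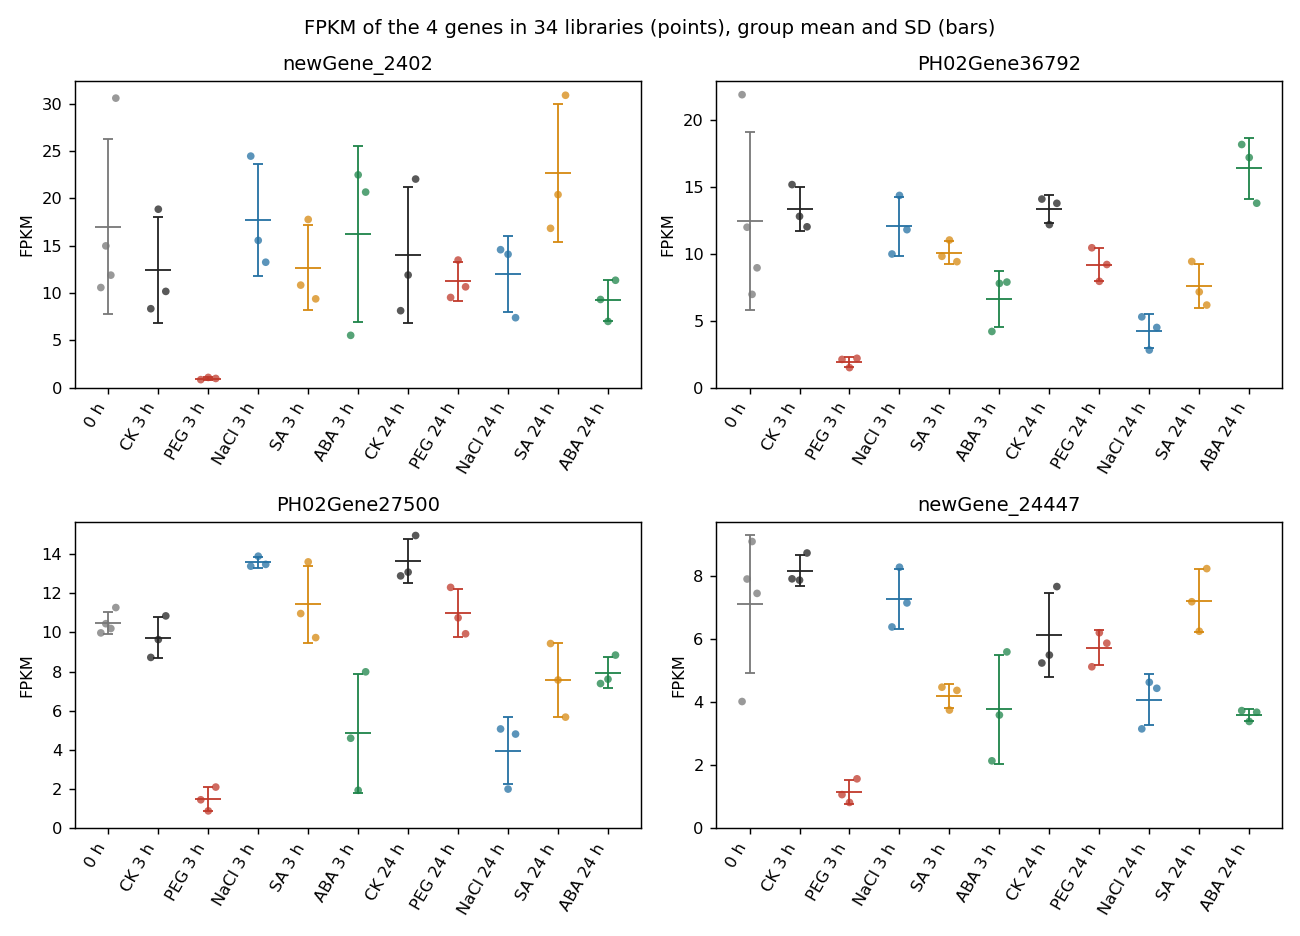
FPKM (y axis, from 0, a separate scale for each gene) of the 4 genes in each of the 34 libraries (points) by group (x axis), with the group mean and SD as bars. PEG 3 h is the lowest group for each gene, and PEG 24 h lies near CK 24 h; the ABA 3 h points lie below CK 3 h for all but newGene_2402.

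PEG 3 h was therefore the lowest of the 11 groups for each of the 4 genes, which the rule favoured for the groups that it used. For newGene_2402, PH02Gene36792 and newGene_24447 the 3 PEG 3 h libraries were also the 3 lowest of all 34. The words "PEG alone" hold for the limits of the rule and less well for the libraries. Only newGene_2402 had overlapping ranges with CK 3 h in all of NaCl, SA and ABA, while the other 3 genes had ratios of -0.88 to -0.94 in ABA 3 h, close to the limit of -1. The ranges of newGene_2402 were wide, with an SD of 45.1% of the mean in CK 3 h and 57.4% in ABA 3 h. Its first ABA 3 h library, at 5.53 FPKM, lay below every CK 3 h library. Overlap with such a spread does not show that the gene was unchanged. With a limit of 0.5 in place of 1 in the 3 treatments, newGene_2402 alone was left. In FPKM, with nothing added, the mean in ABA 3 h was 0.462 of CK 3 h for newGene_24447, 0.497 for PH02Gene36792 and 0.498 for PH02Gene27500, each more than 2-fold lower. On the normalized counts, the log2 fold change in ABA 3 h against CK 3 h was -1.05 for newGene_24447, past the limit set on FPKM. It was -0.87 for PH02Gene36792, -0.88 for PH02Gene27500 and 0.55 for newGene_2402, all with no test.

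Near the PEG 3 h limit, PH02Gene27500 at -2.11 and newGene_24447 at -2.09 were the last genes inside. PH02Gene02497 at -1.90 and PH02Gene36592 at -1.84 were the first ones outside that met the other limits. Their mean FPKM was 4.81 and 17.2 in CK 3 h and 0.560 and 4.07 in PEG 3 h.

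**Figure D3:**
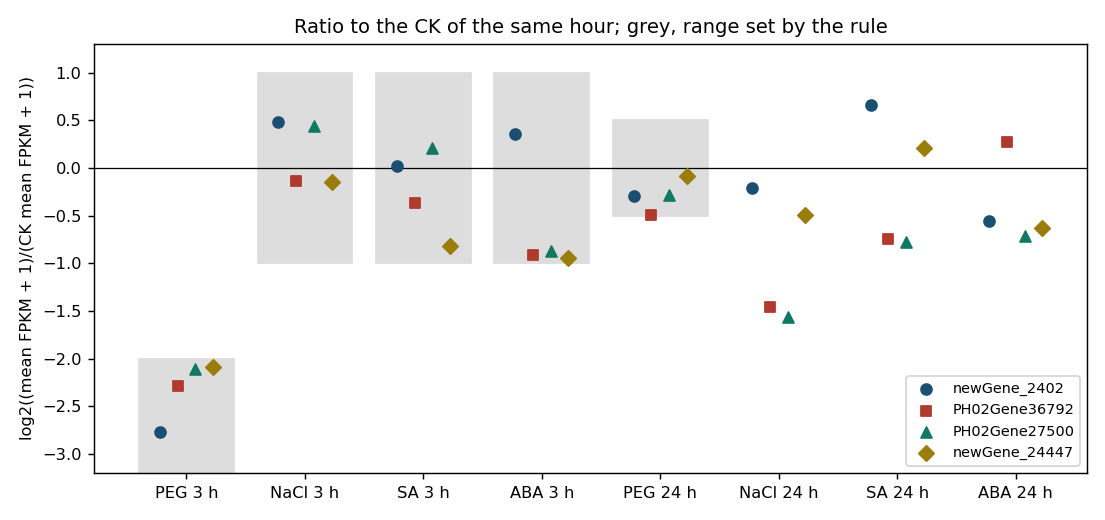
Log2 ratio of mean FPKM + 1 to that of CK at the same hour (y axis) for the 4 genes (symbols) in the 8 treatment groups (x axis), with the range that the rule allowed in grey. The other 3 genes than newGene_2402 sit between -0.88 and -0.94 in ABA 3 h, and PH02Gene36792 and PH02Gene27500 sit at -1.46 and -1.56 in NaCl 24 h, a group without a limit.

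The rule sets the ratios at both hours and so nearly fixes a higher level in PEG at 24 h than at 3 h, and its size is given as a description. From 3 h to 24 h, log2(mean FPKM + 1) of newGene_2402 was 2.63 higher in PEG and 0.16 higher in CK. For PH02Gene27500 these differences were 2.27 and 0.45, and for PH02Gene36792 they were 1.80 and 0.0020. For newGene_24447 the level was 1.64 higher in PEG and 0.36 lower in CK (-0.36), the only gene of the 4 with a lower CK mean at 24 h. In FPKM, the mean of PEG 24 h was 11.6 times that of PEG 3 h for newGene_2402, 7.39 times for PH02Gene27500, 4.96 times for newGene_24447 and 4.75 times for PH02Gene36792. In bulk leaf RNA, fewer cells that express a gene and less RNA per cell cannot be told apart, here and in all results that follow.

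In NaCl 24 h against CK 24 h, PH02Gene36792 and PH02Gene27500 were called lower and the other genes were not called. A gene counts as called where its adjusted p was under 0.05 and the groups differed 2-fold or more. Whether the genes differed from each other was not tested. PH02Gene36792 was at 5.30, 2.82 and 4.51 FPKM in NaCl 24 h, from 73, 26 and 47 counts, below all CK 24 h libraries. Its mean FPKM was 0.315 of that of CK 24 h. On the normalized counts its log2 fold change was -1.55 (SE 0.34, edgeR's quasi-likelihood test, Benjamini-Hochberg adjusted p = 0.000495). PH02Gene27500 was at 5.07, 2.01 and 4.81, from 100, 26 and 71 counts, and its mean FPKM was 0.291 of that of CK 24 h. Its log2 fold change on the normalized counts was -1.67 (SE 0.33, edgeR adjusted p = 0.000142). Both genes fell, and both had been within the limits in NaCl 3 h, where PH02Gene27500 was above CK in every library. newGene_24447, at 3.16, 4.64 and 4.45 FPKM, lay below every CK 24 h library as well and had a log2 fold change of -0.51 (SE 0.22, edgeR adjusted p = 0.0620). The share of all genes whose libraries did not overlap was not computed for any pair of groups. Nothing is read from a lack of overlap, here or in the comparisons that follow. newGene_2402, at 14.6, 14.1 and 7.39 FPKM, overlapped CK 24 h and had a log2 fold change of -0.18 (SE 0.45, edgeR adjusted p = 0.776). The count of 2 of 4 called lower stands beside 14.6% of all genes called lower in this comparison. None of the 4 was called higher by edgeR or DESeq2, beside 13.7% of all genes, and 0 were higher at an unadjusted p under 0.05. The median log2 fold change was -1.03 over the 4 genes and -0.07 over all genes tested.

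Against 0 h, a group that the rule did not use, the same genes were called lower in NaCl 24 h: PH02Gene36792 (log2 fold change -1.58, SE 0.33, edgeR adjusted p = 0.000354) and PH02Gene27500 (log2 fold change -1.36, SE 0.31, edgeR adjusted p = 0.00103). Of all genes, 9.32% were called lower and 9.81% higher, and 0 of the 4 were called higher by edgeR or DESeq2 or at an unadjusted p under 0.05. At 0 h PH02Gene27500 was at 9.97, 10.4, 10.2 and 11.3 FPKM, the narrowest range of the 4 genes, and PH02Gene36792 was at 21.9, 12.01, 6.99 and 8.97. NaCl 24 h lay below every 0 h library for both genes. In every comparison with 0 h, the treatment and the 24 h that passed cannot be told apart. The mean of PH02Gene27500, for example, was 10.5 FPKM at 0 h and 13.6 in CK 24 h. Without the first 0 h replicate, the one at 21.9 FPKM, the log2 fold changes were -1.03 for PH02Gene36792 and -1.30 for PH02Gene27500, and both were still called. In a fit of the 2 groups alone PH02Gene36792 was no longer called (log2 fold change -1.58, edgeR adjusted p = 0.0705). newGene_24447 was lower by under 2-fold (log2 fold change -0.66, SE 0.21, edgeR adjusted p = 0.0151; -0.83 without the first 0 h replicate), with 4.03, 7.92, 9.11 and 7.46 FPKM at 0 h. newGene_2402, at 10.6, 15.0, 11.9 and 30.6 FPKM at 0 h, had a log2 fold change of -0.48 (SE 0.43, edgeR adjusted p = 0.406), and of -0.61 without that replicate.

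In SA 24 h none of the 4 genes reached the 2-fold limit. PH02Gene36792 was at 9.45, 7.17 and 6.19 FPKM and PH02Gene27500 at 9.43, 7.57 and 5.68, all below CK 24 h. Their log2 fold changes against CK 24 h were -0.86 (SE 0.34, edgeR adjusted p = 0.0445) and -0.90 (SE 0.32, edgeR adjusted p = 0.0288). newGene_2402 reached its highest group mean in SA 24 h, 22.7 ± 7.30 FPKM (SD, n = 3; 16.8, 20.4 and 30.9 in the libraries), which overlapped CK 24 h (log2 fold change 0.62, SE 0.45, edgeR adjusted p = 0.308). newGene_24447 was at 7.19, 6.26 and 8.25 FPKM (log2 fold change 0.15, SE 0.22, edgeR adjusted p = 0.647). By edgeR 0 of 4 genes were called in either direction, beside 10.9% of all genes called lower and 8.39% called higher. DESeq2 also called 0, and 2 genes were lower and 0 higher at an unadjusted p under 0.05. Without the first SA 24 h replicate, PH02Gene36792 (-1.03) and PH02Gene27500 (-1.07) were both called lower.

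Against 0 h, 0 of 4 genes were called in SA 24 h by edgeR or DESeq2, beside 11.4% of all genes called lower and 8.96% called higher, and 1 was lower and 0 higher at an unadjusted p under 0.05. That gene was PH02Gene36792 (log2 fold change -0.90, SE 0.32, edgeR adjusted p = 0.0277). Its value was -0.34 without the first 0 h replicate, and it was called lower without the first SA 24 h replicate (-1.08), the third 0 h replicate (-1.11) or the fourth (-1.05). The values were -0.60 for PH02Gene27500 (SE 0.30, edgeR adjusted p = 0.130), 0.32 for newGene_2402 (SE 0.42, edgeR adjusted p = 0.600) and 0.0040 for newGene_24447 (SE 0.21, edgeR adjusted p = 0.997). Without the first 0 h replicate they were -0.54, 0.20 and -0.17, and none was called.

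In ABA 24 h, newGene_24447 and PH02Gene27500 lay below CK 24 h in every library, and the other genes overlapped it. The share of all genes that lay wholly below CK 24 h was not computed, so nothing is read from this. newGene_24447 was at 3.74, 3.39 and 3.69 FPKM, below every CK 24 h library and close to its ABA 3 h mean of 3.78 ± 1.74 (SD, n = 3). Its log2 fold change was -0.65 against CK 24 h (SE 0.23, edgeR adjusted p = 0.0253) and -0.80 against 0 h (SE 0.21, edgeR adjusted p = 0.00454), both under 2-fold, and -0.97 against 0 h without the first 0 h replicate. PH02Gene36792, which lay below CK in ABA 3 h, had its highest group mean in ABA 24 h, 16.4 ± 2.31 FPKM (SD, n = 3; 18.2, 17.2 and 13.8 in the libraries), which overlapped CK 24 h (log2 fold change 0.59, SE 0.33, edgeR adjusted p = 0.1699). Against 0 h its value was 0.55 (SE 0.31, edgeR adjusted p = 0.157), and 1.11 without the first 0 h replicate, where it was called higher (edgeR adjusted p = 0.000459). That replicate resembled ABA 24 h across genes, so the call depends on whether it is counted as 0 h.

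PH02Gene27500 was at 7.39, 7.61 and 8.84 FPKM in ABA 24 h, below every CK 24 h library (log2 fold change -0.48, SE 0.32, edgeR adjusted p = 0.251). Against 0 h its log2 fold change was -0.18 (SE 0.30, edgeR adjusted p = 0.684), and -0.12 without the first 0 h replicate. newGene_2402 was at 9.31, 7.001 and 11.3 FPKM, with log2 fold changes of -0.37 against CK 24 h (SE 0.45, edgeR adjusted p = 0.562) and -0.67 against 0 h (SE 0.43, edgeR adjusted p = 0.226; -0.80 without that replicate). By edgeR and by DESeq2, 0 of 4 genes were called in ABA 24 h against CK 24 h or against 0 h, and 1 was lower and 0 higher at an unadjusted p under 0.05 in each. Beside this, 12.7% of all genes were called lower and 5.8% higher against CK 24 h, and 13.2% and 5.63% against 0 h.

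NaCl 24 h against SA 24 h compares groups that the rule did not use and that share no control. All 4 genes had a lower estimate in NaCl 24 h, and 0 were called by edgeR or DESeq2, beside 6.55% of all genes called lower and 9.05% called higher. At an unadjusted p under 0.05, 2 were lower and 0 higher. newGene_24447 was lower by under 2-fold (log2 fold change -0.66, SE 0.22, edgeR adjusted p = 0.0239), and its libraries did not overlap between the groups. The values were -0.80 for newGene_2402 (SE 0.45, edgeR adjusted p = 0.188), -0.77 for PH02Gene27500 (SE 0.33, edgeR adjusted p = 0.0763) and -0.69 for PH02Gene36792 (SE 0.34, edgeR adjusted p = 0.132). The median was -0.73 over the 4 genes and -0.01 over all genes.

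**Figure D4:**
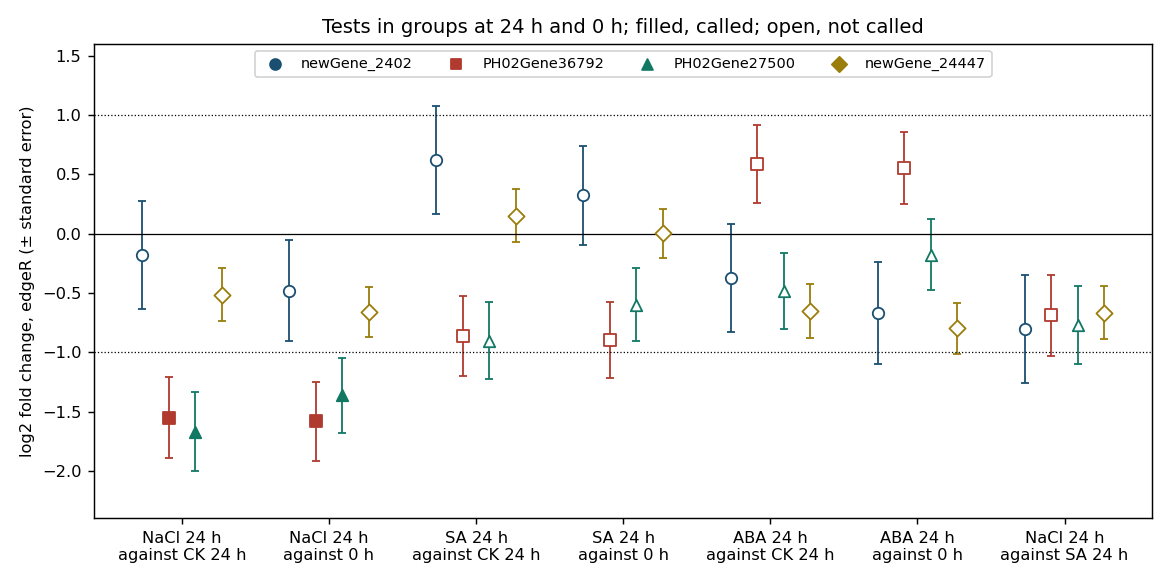
Log2 fold change (y axis) with its approximate standard error (bars) from edgeR for the 4 genes (symbols) in 7 comparisons among groups at 24 h and 0 h (x axis), with dotted lines at 2-fold. Filled symbols, those called, are PH02Gene36792 and PH02Gene27500 in NaCl 24 h against CK 24 h and against 0 h, between -1.36 and -1.67.

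Across all groups, most neighbours in the order of the levels overlapped. For newGene_2402, PEG 3 h was separate from the next group, ABA 24 h at a mean of 9.22 FPKM, and the other 9 neighbouring pairs overlapped up to SA 24 h. For PH02Gene36792 it was separate from NaCl 24 h at 4.21, and the other 9 pairs overlapped up to ABA 24 h. For newGene_24447, PEG 3 h was separate from ABA 24 h at 3.61, and SA 3 h at 4.21 was separate from PEG 24 h at 5.74, while 8 pairs overlapped up to CK 3 h at 8.18. For PH02Gene27500 all 10 neighbouring pairs overlapped, from PEG 3 h through NaCl 24 h at 3.96 to CK 24 h at 13.6.

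The genes shared few features that the rule did not use. The ratio of counts to FPKM and library total gives an implied length. It need not be the length that FPKM assumed, since the fragments and totals behind FPKM may differ from the deposited counts. The median implied length over libraries was 266 bases for PH02Gene36792 and 378 bases for PH02Gene27500, and 0.835% and 3.22% of the genes tested were shorter by this measure. It was 1578 bases for newGene_24447 and 2489 bases for newGene_2402, beside a median of 1660 bases over all genes tested. The 2 genes called lower in NaCl 24 h were thus the 2 short ones, with at most 186 and 197 counts in any library, and the part of length or depth in that was not tested. The implied length was not constant between libraries for any of the 4 genes. In PEG 3 h it was 2776 to 2864 bases for newGene_2402, against 2468 to 2560 in CK 3 h. It was 276 to 290 against 265 to 266 for PH02Gene36792, 391 to 412 against 377 to 379 for PH02Gene27500, and 1571 to 2513 against 1483 to 1873 for newGene_24447. FPKM and counts therefore do not give the same ratios between these groups. The TMM normalization used in the tests also gave factors of 1.10 to 1.12 in CK 3 h and 0.87 to 0.88 in PEG 3 h. Log2 fold changes on the normalized counts, PEG 3 h against CK 3 h, were -3.18 for newGene_2402 and -2.33 for PH02Gene36792. They were -2.28 for PH02Gene27500 and -2.29 for newGene_24447. These values are a description with no test. Each is a smaller difference than the mean FPKM gave with nothing added, and a larger one than the ratio with 1 added. Of the 4 identifiers, 2 belonged to the newGene series, which made up 15.2% of the genes tested, and which the files do not describe further.

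The mean over all libraries was 13.4 FPKM for newGene_2402, 9.85 for PH02Gene36792, 8.75 for PH02Gene27500 and 5.37 for newGene_24447, all above the median of 3.28 over the genes tested. newGene_2402 varied most between replicates. Its SD was 33.4% of the mean (median over the groups), against 18.2% for PH02Gene36792, 13.7% for newGene_24447, 10.9% for PH02Gene27500 and 16.2% for the median of all genes tested. Its tests accordingly had the widest errors of the 4 genes, with SE from 0.42 to 0.45 on the log2 scale.

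Which genes met the rule changed with the processing and the libraries. With TMM-normalized CPM (counts scaled to library size, without gene length) and a pseudocount of 1 in place of FPKM, which changes the unit and the normalization together, 3 genes met it, and newGene_2402 was the only one of the 4 among them. In CPM the added 1 weighs more on the 2 short genes, which had 104 to 184 counts in the CK 3 h libraries. Their ratios could hardly reach -2 in that unit, so nothing is read from their loss. newGene_24447, with 467 to 592 counts in the CK 3 h libraries, was lost as well. It is not one of the short genes, and the reason for its loss was not tested. Leaving out 1 of the 21 libraries in turn gave the same 4 genes in 11 of 21 cases. newGene_2402 was kept in 20 of them, PH02Gene27500 and newGene_24447 in 19 each and PH02Gene36792 in 17.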

How the data were processed

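Poly-A RNA of moso bamboo leaves was sequenced in 34 libraries, which their labels place in 11 groups. The authors deposited raw read counts per gene, with no normalization, and FPKM values that they computed per library before deposition. The submitters' processing notes name HISAT2 and DESeq2 with no version. The counter, its treatment of strand, the genome build and the annotation were not given in the sources used. Reads of antisense or near-identical genes may therefore be shared. Each library held 28153302 to 51695158 counts, and errors at low counts include counting error.

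The 4 genes were chosen from mean FPKM with a pseudocount of 1. The members, lists and tests were chosen with earlier results of these data known. The named genes are all 4, with the 2 genes just outside the PEG 3 h limit. The tests ran on the counts in R 4.3.3 with edgeR 4.0.16. The function filterByExpr left 39392 genes, normalization was by TMM, and 1 quasi-likelihood model with a mean per group was fitted to all 34 libraries, with Benjamini-Hochberg adjustment over all genes. A call required an adjusted p under 0.05 together with a 2-fold difference or more. The 7 comparisons used groups at 24 h and 0 h. The SE was approximated by dividing the log2 fold change by the root of its F statistic. The calling was tried on simulated counts with 200 genes changed 4-fold and the same relative spread for every gene, unlike the data. For NaCl 24 h against CK 24 h, edgeR recovered 163 with 5 false calls and DESeq2 163 with 22. For NaCl 24 h against 0 h, edgeR recovered 172 with 5 false calls and DESeq2 172 with 20. Alternatives were DESeq2 1.42.0, its size factors, no filter, a fit of the compared groups alone, a block on the replicate number, pseudocounts of 0.1 and 0.5 FPKM, a minimum of 1 FPKM in CK 3 h, CPM with TMM normalization in place of FPKM, and the omission of 1 replicate at a time. The limits of -1.5, 0.5 and 1 in the rule, and the fits without the first 0 h replicate for comparisons that do not use it, were added after seeing the data. Of the replicate pairs, 0 had identical values. Tables and plots used Python 3.11.15, numpy 2.4.6, pandas 2.3.3 and matplotlib 3.10.9. No promoter, transcript or protein sequence was used.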

Additional observations from a re-analysis of the deposited data

Results flagged for a closer look

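newGene_24447 differed between the salt and the salicylic acid treatment at 24 h, by -0.66 on the log2 scale (NaCl 24 h minus SA 24 h, edgeR adjusted p = 0.0239), with lower FPKM in all 3 NaCl libraries than in any SA library. The difference is under 2-fold, and its adjusted p ranged from 0.00191 to 0.119 over the alternatives.

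PH02Gene27500 lay above CK in every library of NaCl 3 h and below CK in every library of 6 groups, 3 of which are compared here. Its log2 ratio to CK in NaCl 3 h exceeded that in ABA 3 h by 1.32, that in NaCl 24 h by 2.00 and that in PEG 3 h by 2.55. These 3 differences were not tested, and the rule had used NaCl 3 h, ABA 3 h and PEG 3 h to choose the gene. In NaCl its mean FPKM was 13.6 with an SD of 0.272 at 3 h, and 3.96 with an SD of 1.70 at 24 h, over 3 libraries each.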

How the results depend on the processing

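The number of genes that met the rule was 42 with a pseudocount of 0.1 FPKM and 7 with 0.5, of which 2 were among the 4 in each case. It was 43 with a PEG 3 h limit of -1.5, 7 with a limit of 1 in PEG 24 h, and 1 with a limit of 0.5 in the other treatments at 3 h. Leaving out 1 library gave 1 to 6 genes: 2 without the second PEG 3 h replicate and 1 without the third ABA 3 h replicate. The difference from 3 h to 24 h in PEG was 3.40 for newGene_2402, 2.80 for PH02Gene27500, 2.22 for newGene_24447 and 2.19 for PH02Gene36792 with a pseudocount of 0.1 FPKM. In TMM-normalized CPM with a pseudocount of 1, which weighs more on these 2 short genes, it was 1.69 for PH02Gene27500 and 1.14 for PH02Gene36792. The causes were not tested.

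Over 336 alternatives for the 28 values of the 4 genes in the tested comparisons, 323 kept their direction and their side of the threshold. The number called lower in NaCl 24 h against 0 h was 1 with only these groups in the fit. Leaving out 1 replicate, the number called lower was 0 to 2 in SA 24 h against CK 24 h and 0 to 1 in SA 24 h against 0 h, and the number called higher in ABA 24 h against 0 h was 0 to 1. Estimates near 0 turned their sign. For newGene_2402, NaCl 24 h against CK 24 h was 0.35 without the third CK 24 h replicate and 0.098 without the third NaCl 24 h replicate, and ABA 24 h against CK 24 h was 0.15 without the third CK 24 h replicate; over the replicates left out, these values went down to -0.42 and -0.62. For newGene_24447, SA 24 h against 0 h was -0.011 without the third SA 24 h replicate and -0.17 without the first 0 h replicate, and went up to 0.099.

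The deviations of libraries with the same replicate number correlated at -0.066 to 0.027, which shows no pairing by number but cannot exclude one. With the replicate number as a block, 1 gene was called lower in SA 24 h against 0 h (PH02Gene36792, log2 fold change -1.01, edgeR adjusted p = 0.0164), and no other call changed. PEG 3 h rests on 11 to 26 counts per library for the 2 short genes, which limits their ratios.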
